A study of Mus musculus with 9 samples.

Results

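The comparison described here is that of hairpin Brg1sh_3364 against the Renilla luciferase control hairpin (Rluc) in RN2 cells, which are mouse acute myeloid leukaemia cells carrying MLL-AF9 and NrasG12D. It rests on 5 of the 9 arrays of the series, the 2 arrays titled Brg1sh_3364 and the 3 titled Rluc, chosen by their titles and not by any measured value. The remaining 4 arrays hold 2 other Brg1 hairpins, Brg1sh_3232 and Brg1sh_4935, with 2 arrays each. All cells carried a TRMPV construct, which makes its hairpin in response to doxycycline, and all were kept in 1 ug/ml doxycycline for 96 h, so the control cells also received the drug and made a hairpin. The control arrays' cell line label carries a further term, TtTMPV, which the knockdown arrays' labels lack, so the hairpin and this difference in the labelled line cannot be told apart. Every sample is a transduced derivative of a single leukaemia line, and nothing in the labels says that replicates were separate cultures. P-values therefore measure only the spread between these arrays, which may be technical.

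Brg1, encoded by Smarca4, is an ATPase that powers the SWI/SNF (BAF) chromatin remodelling complex, which moves or evicts nucleosomes at promoters and enhancers. Its paralog Brm, encoded by Smarca2, can take its place in the complex. In leukaemia cells driven by MLL fusions, Brg1 is known for keeping an enhancer region far downstream of Myc active, and Myc in turn drives genes of ribosome production and nucleotide synthesis. The series was designed to ask which genes respond when Brg1 is suppressed in such cells.

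Expression was measured as log2 RMA values on 1-colour arrays, and 19937 genes were tested with limma. The number of arrays limits the precision. Array medians lay between 7.39 and 7.49, and the 2 Brg1sh_3364 arrays correlated with each other at r = 0.9968 over all rows of the table, against 0.989 to 0.9923 with the control arrays. All 10 fixed markers of leukaemic myeloid cells, among them Ptprc, Spi1, Itgam, Kit and Mpo, stood at or above percentile 71.2 of all genes' levels in the controls. The measured markers of T cells, B cells and erythroid cells stood at or below percentile 39.7. Some markers of megakaryocytes (Gp9 at 62.7), of mast cells and basophils (Cpa3 at 63.3, Mcpt8 at 56.8) and of eosinophils (Prg2 at 48) stood higher. In bulk RNA, fewer cells of a type and less RNA per cell cannot be told apart, and this holds for every result below.

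The targeted gene was lower with the Brg1 hairpin. Smarca4 measured 10.78 and 10.81 (log2) in the Brg1sh_3364 arrays and 11.79, 11.77 and 11.79 in the controls, and the groups did not overlap. The fall was 0.99 on the log2 scale (SE 0.065, adjusted p = 1.31e-05, limma), which left 50.3% of the control signal (95% interval 45.4 to 55.7%). Smarca2 measured 10.86 and 10.91 against 10.83, 10.80 and 10.63, a difference of 0.14 that did not pass the test (adjusted p = 0.170). The SWI/SNF list had 30 measured members, of which 9 rose, 3 fell and the median changed by 0.02. The subunits with the smallest p after Smarca4 were Bcl7b, a small accessory subunit (up 0.31), and Bicral, a subunit of the non-canonical BAF complex (up 0.44). Without either Brg1sh_3364 array the counts of the SWI/SNF list were 4 and 1, and the sign of its median turned under other scalings of the arrays.

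**Figure D1:**
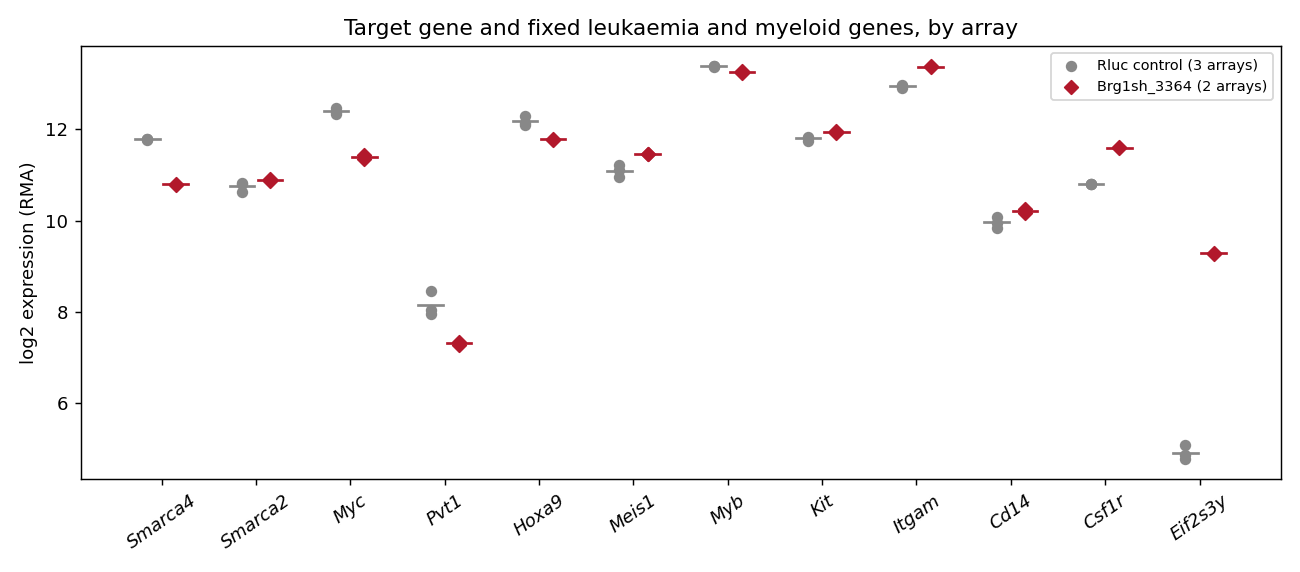
Log2 expression (RMA, vertical axis) of 12 genes fixed by name, one point per array, with 3 Rluc arrays in grey and 2 Brg1sh_3364 arrays in red and a bar at each group mean. Smarca4, Myc, Pvt1 and Hoxa9 lie lower and Meis1, Itgam, Csf1r and Eif2s3y higher with Brg1sh_3364, while Smarca2 and Kit did not pass the test.

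The response was broad and mostly small. At an adjusted p below 0.05, 5133 genes were called, 25.7% of those tested. Of these, 2707 rose (13.6% of all genes) and 2426 fell (12.2%), with a median absolute change of 0.36 on the log2 scale among called genes and a median change of -0.01 over all genes. In every called gene the 2 Brg1sh_3364 arrays lay apart from all 3 controls, which is again 25.7% of genes. A change of at least 2-fold was called upward in 189 genes (0.948%) and downward in 94 (0.471%). At least 4-fold, 16 rose and 7 fell. Without Brg1sh_3364 array 2 the number called was 3424, and at a threshold of 0.01 it was 3246. The counts of each gene group below are to be read beside these shares, 13.6% of all genes that rose and 12.2% that fell. Counts of these groups with a single array left out have no such share beside them. Fewer genes were called over all genes in those fits. In these groups, the 3 members with the smallest p were named by rule, and further members given with a value were chosen after their values were seen.

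**Figure D2:**
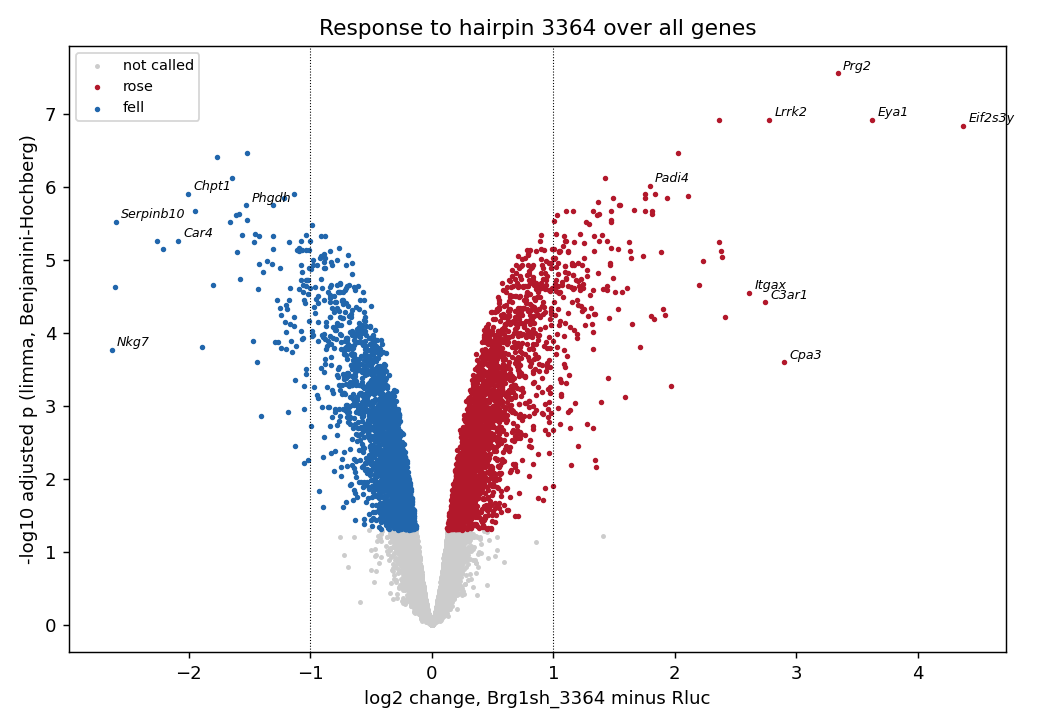
Log2 change with Brg1sh_3364 (horizontal axis) against -log10 of the limma adjusted p (vertical axis) for each of 19937 genes, with genes that rose in red, genes that fell in blue, the others in grey, and dotted lines at 2-fold. The 189 rises and 94 falls of at least 2-fold lie outside the dotted lines, with Eif2s3y, Eya1 and Prg2 farthest to the right.

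Among the largest rises were genes of transcription, granule cargo and cell surface receptors. Eya1, a phosphatase and partner of sine oculis homeobox factors, measured 10.06 and 9.96 against 6.47, 6.39 and 6.30 in the controls, a 12.3-fold rise (3.62 on the log2 scale, SE 0.09, adjusted p = 1.19e-07, limma). Prg2, the eosinophil granule major basic protein, measured 11.00 and 10.89 against 7.64, 7.67 and 7.51, a rise of 3.34. In both genes the gap between groups was many times the spread within them. Cpa3, the mast cell carboxypeptidase, measured 12.32 and 12.22 against 8.52, 9.73 and 9.87. The controls of Cpa3 were spread over more than a log2 unit, and its rise of 2.90 had an SE of 0.33 (adjusted p = 0.000252). Lrrk2, a large kinase and GTPase, rose by 2.78, from 7.50, 7.49 and 7.48 to 10.24 and 10.30, and its dimmer probe set differed by 0.778. C3ar1, the receptor for the complement fragment C3a, rose by 2.74, and Itgax, the integrin chain CD11c, by 2.61. The other rises named by the rule were Cd200r3 (2.42, an activating relative of the CD200 receptor), P2ry13 (2.39, an ADP receptor), Ankrd22 (2.38), Cntln (2.36, a centrosome protein), Camk1d (2.36, a calcium-dependent kinase), Lgmn (2.23, the lysosomal protease legumain), Gimap5 (2.20, a GTPase) and Ak8 (2.11, an adenylate kinase).

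Eif2s3y, the Y-linked subunit of translation initiation factor eIF2, had the largest rise of all named genes, 4.37 (SE 0.11, 20.7-fold). It measured 9.30 and 9.27 against 4.78, 4.88 and 5.08. Of 8 measured Y-linked genes, 4 rose, among them Kdm5d, a histone demethylase, by 0.56 and Uty by 0.50. Kdm5d measured 9.68 and 9.70 against 9.23, 9.25 and 8.92. Uba1y, Sry, Zfy1 and Usp9y did not pass the test. Without Brg1sh_3364 array 1, 2 of the 8 Y-linked genes rose. Eif2s3y was 2.23 higher with Brg1sh_3364 than with the other 2 Brg1 hairpins (SE 0.11, adjusted p = 2.07e-05, limma). That difference uses no control array, while its error comes from the fit over all 9 arrays. Whether the labelled difference of the control line plays a part in its change against the controls was not tested.

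The largest falls included proteins of cytotoxic and neutrophil granules, enzymes and surface proteins. Nkg7, a membrane protein of cytotoxic and azurophil granules, measured 7.15 and 6.86 against 9.99, 9.99 and 8.93. Control array 3 lay about a log2 unit under the others, and its change of -2.63 had an SE of 0.28 (adjusted p = 0.000172, limma). Hao1, a peroxisomal hydroxyacid oxidase, fell by 2.60, and Serpinb10, an intracellular serine protease inhibitor of myeloid cells, fell by 2.60, from 11.42, 11.33 and 11.63 to 9.06 and 8.67. Car4, a membrane-anchored carbonic anhydrase, measured 9.71 and 9.53 against 11.67, 11.64 and 11.80, a fall of 2.08. The further falls named by the rule were Tspan2 (-2.26, a tetraspanin), Cnn3 (-2.21, an actin-binding calponin), Chpt1 (-2.01, which makes phosphatidylcholine), Arhgap10 (-1.95), Fads2 (-1.89, a fatty acid desaturase), F13a1 (-1.80, the coagulation factor XIII A chain of monocytes), Nlrp1a (-1.76, an inflammasome sensor), Cst7 (-1.66, cystatin F), Layn (-1.64), Hdc (-1.61, which makes histamine) and Cysltr1 (-1.60, a leukotriene receptor).

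**Figure D3:**
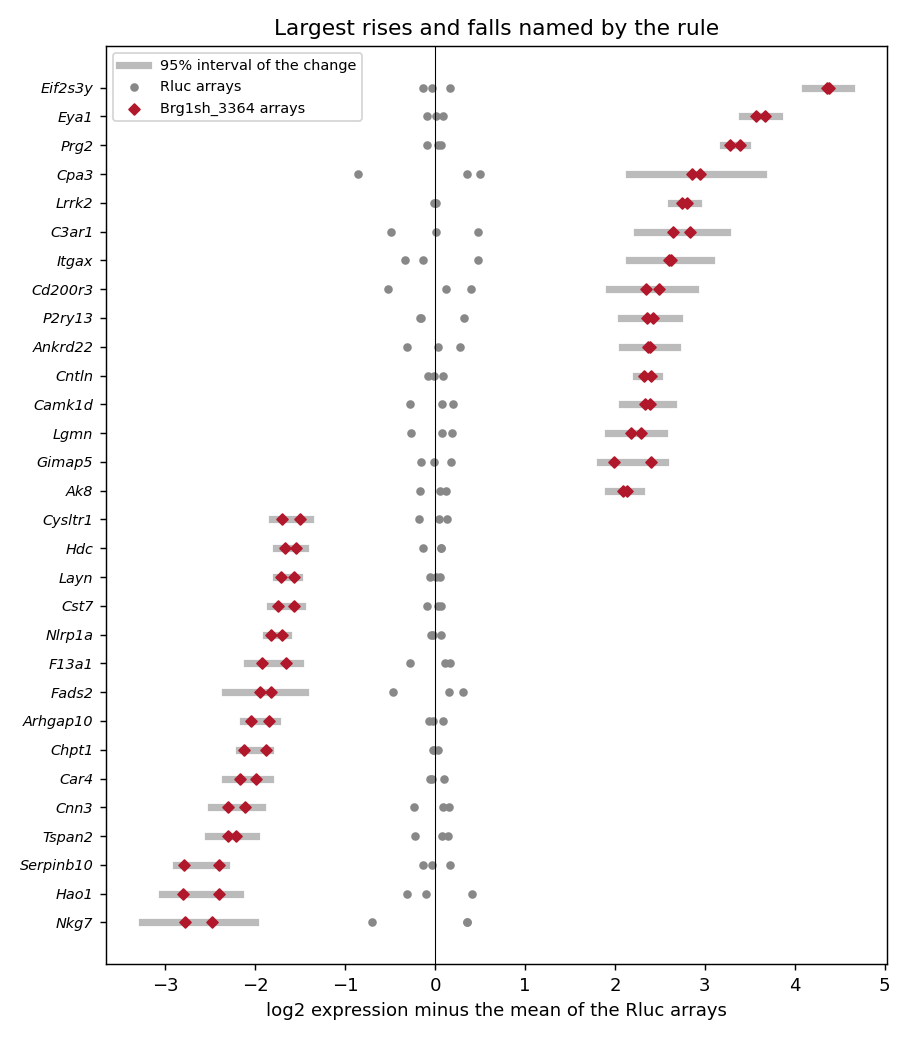
The 15 largest rises and 15 largest falls named by the rule, as log2 expression minus the mean of the Rluc arrays (horizontal axis), with grey dots for the 3 Rluc arrays, red diamonds for the 2 Brg1sh_3364 arrays and a grey bar for the 95% interval of the change from limma. The rule required the 2 groups of arrays to be apart in each of the 30 genes. The controls are most widely spread for Cpa3 and Nkg7.

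Myc fell and the other regulators of leukaemia cells moved in both directions. Myc measured 11.43 and 11.34 against 12.47, 12.34 and 12.39, a fall of 1.01 on the log2 scale (SE 0.065, adjusted p = 1.28e-05, limma), or 2.01-fold. The groups did not overlap. Pvt1, a noncoding transcript next to Myc, measured 7.35 and 7.28 against 7.95, 8.05 and 8.45 and fell by 0.84 (SE 0.14), while its second, much dimmer probe set differed by 0.01. Hoxa9, a homeobox factor that MLL fusions activate, fell by 0.39, from 12.08, 12.15 and 12.28 to 11.79 and 11.77. Its partner Meis1 rose by 0.37, to 11.46 and 11.46 from 10.95, 11.22 and 11.11. Myb, another transcription factor of these leukaemias, measured 13.26 and 13.23 against 13.38, 13.36 and 13.39, a difference of -0.13 that passed the test narrowly (adjusted p = 0.0439, limma) and lost its call when any single array of the 5 was left out, after further quantile normalization and in a fit on the 5 arrays alone. Kit, the stem cell factor receptor, differed by 0.14 and did not pass (adjusted p = 0.0806). Of 34 measured regulators of leukaemia and progenitor cells, 9 rose and 8 fell, with a median of 0.02. Ikzf2, the Ikaros relative Helios, rose by 1.76, to a mean of 8.97 (SD 0.037, n = 2) from 7.23, 7.29 and 7.13. Without Brg1sh_3364 array 2, 5 rose and 7 fell.

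Genes that build ribosomes fell almost as a whole. Of 58 measured ribosome biogenesis genes, 54 fell and 0 rose, beside 12.2% of all genes that fell, and the median change was -0.50. Utp4, a component of the small subunit processome, measured 11.53 and 11.48 against 12.20, 12.25 and 12.38, a fall of 0.77 (SE 0.058, adjusted p = 2.76e-05, limma). Nolc1, a nucleolar chaperone, fell by 0.76 (SE 0.057) and Mybbp1a, a nucleolar Myb-binding protein, by 0.76 (SE 0.054). The groups were apart in each of them. Rrs1, a factor of large subunit assembly, fell by 1.04, and Gnl3, the nucleolar GTPase nucleostemin, by 0.94. Subunits of RNA polymerase I were among those that fell, with Polr1b at -0.74 and Polr1e at -0.73. Small falls were those of Nop10 (-0.18) and Imp3 (-0.22). The array means over the 58 genes lay between 10.54 and 10.62 with Brg1sh_3364 and between 11.02 and 11.23 in the controls.

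Promoters of the ribosome biogenesis genes were searched for the E-box CACGTG, a hexamer that Myc with its partner Max binds and that reads the same on both strands. The sequences are those of RefSeq (GRCm38.p6) from 250 bases before to 50 bases after each annotated start, 300 bases in all. The hexamer was found in 12 of 59 promoters of this list (20.3%), beside 8.26% of the 19115 promoters of tested genes. Among genes that fell it was 11.6% of promoters and among genes that rose 8.97%. In lysosome genes, of which more rose than fell, the share was 35.4%. The stretches below, shown because each holds this hexamer close to the start of a ribosome gene that fell, come from the plus strand at chr6:125131793-125131858 (Nop2), chr1:34439678-34439743 (Imp4) and chr16:13780621-13780686 (Rrn3). They run 5′ to 3′, the capitals mark the hexamer, and its first base lies 60, 121 and 48 bases before the start.
Nop2: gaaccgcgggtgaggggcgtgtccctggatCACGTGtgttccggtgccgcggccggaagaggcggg
Imp4: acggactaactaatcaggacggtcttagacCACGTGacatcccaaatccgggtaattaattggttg
Rrn3: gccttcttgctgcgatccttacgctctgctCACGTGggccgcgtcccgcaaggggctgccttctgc
Nop2, a methyltransferase of 28S ribosomal RNA, fell by 0.60, from 11.53, 11.64 and 11.77 to 11.08 and 11.01. Imp4, a processome protein, fell by 0.32, and Rrn3, the initiation factor of RNA polymerase I, by 0.34. A match is a description of the letters, and no binding was measured here.

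Enzymes that make serine, folate-bound carbon units, nucleotides and polyamines also fell. Of 29 measured, 26 fell and 0 rose, with a median of -0.39. Phgdh, the entry enzyme of serine synthesis, measured 9.24 and 9.20 against 10.65, 10.76 and 10.83, a fall of 1.53 (SE 0.063, adjusted p = 1.77e-06, limma). Psat1, the next enzyme of that pathway, fell by 0.77 (SE 0.042) from 13.04, 13.03 and 13.06 to 12.28 and 12.27. Mthfd1, which interconverts folates, fell by 0.70, and Odc1, the entry enzyme of polyamine synthesis, by 1.04. Purine enzymes fell by less, for example Gart by 0.39 and Paics by 0.19. Cholesterol synthesis genes had 10 of 20 members that fell and 0 that rose, with a median of -0.24. Sqle, which forms squalene epoxide, fell by 0.78, Cyp51, a sterol demethylase, by 0.72, and Idi1, an isoprenoid isomerase, by 0.44. The second, slightly dimmer probe set of Idi1 differed by -0.763. Without Brg1sh_3364 array 2, 5 of the 20 fell.

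Genes of the integrated stress response and the unfolded protein response fell in 22 of 42 cases and rose in 1, with a median of -0.19. The list shares Phgdh, Psat1 and Asns with the serine and nucleotide list. Stc2, a secreted glycoprotein of stressed cells, fell by 1.09, to 8.61 and 8.64 from 9.63, 9.71 and 9.82. Among the chaperones of the endoplasmic reticulum, Hspa5 fell by 0.27 and Hsp90b1 by 0.25, and the transcription factor Atf4 fell by 0.25. The rise was that of Slc7a11, the cystine transporter (0.52), and it was not called without either Brg1sh_3364 array or without control array 1. Without either Brg1sh_3364 array, 16 genes of this list fell.

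**Figure D4:**
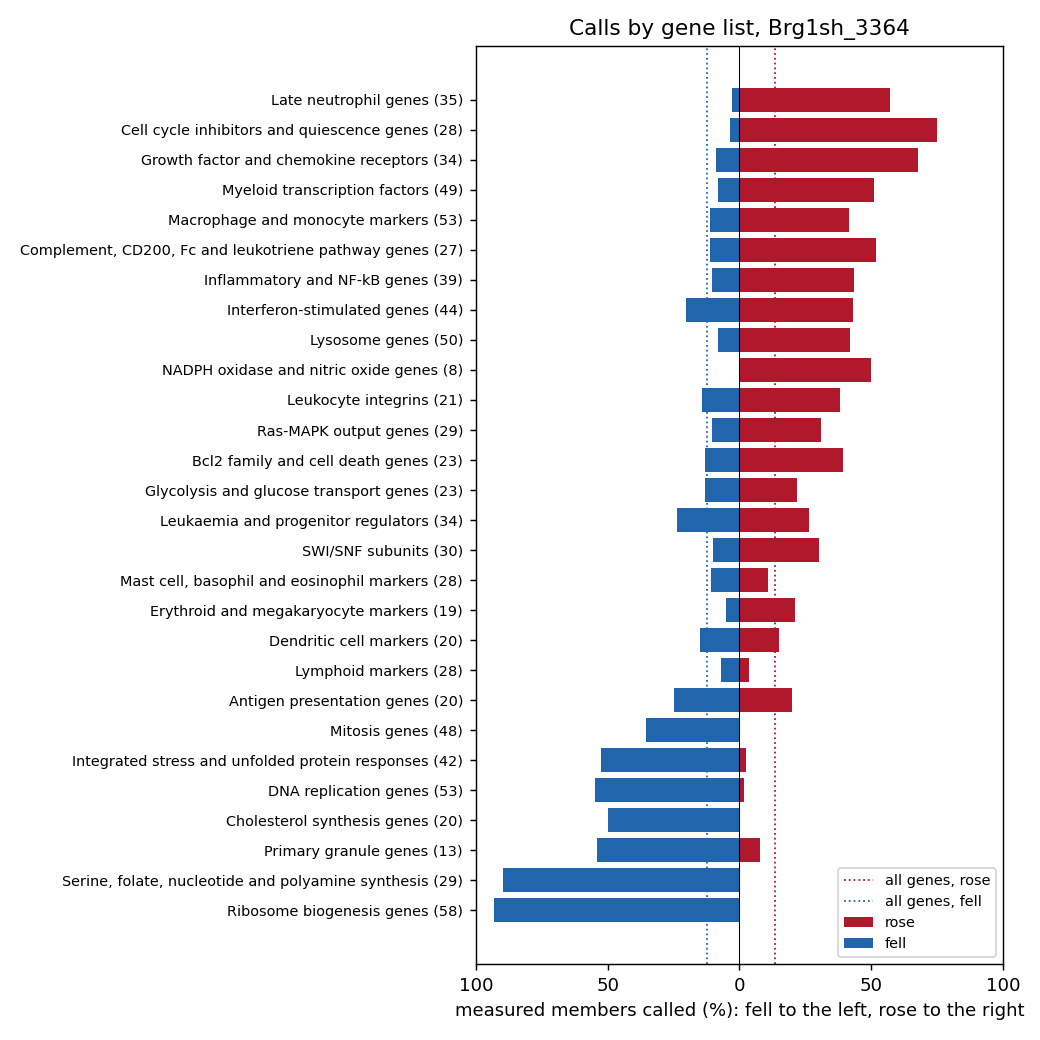
Percent of the measured members of each gene list that fell (blue, to the left) or rose (red, to the right) with Brg1sh_3364, with the number of measured members in brackets and dotted lines at the share over all genes (12.2% fell, 13.6% rose). Lists are ordered by their median change, from ribosome biogenesis and serine, folate, nucleotide and polyamine synthesis at the bottom to cell cycle inhibitors and late neutrophil genes at the top.

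Called genes of DNA replication and mitosis mostly fell, and cell cycle inhibitors mostly rose. Of 53 measured DNA replication genes, 29 fell and 1 rose, with a median of -0.20. Orc1, which helps to mark replication origins, was down by 0.80 (SE 0.075), from 9.08, 9.10 and 9.09 to 8.40 and 8.19, and Gins1, of the replicative helicase, by 0.58. The riser was E2f2, an E2F transcription factor, up 0.84 to 10.85 and 10.81 from 10.06, 10.09 and 9.83. The MCM helicase subunits that fell did so by at most 0.37 (Mcm2). Of 48 mitosis genes, 17 fell and 0 rose, with a median of -0.14. Aurka, the Aurora A kinase, fell by 0.46, Cdc20, an activator of the anaphase-promoting complex, by 0.34, and Incenp, of the chromosomal passenger complex, by 0.32. The count of mitosis genes that fell depended on single arrays. It was smaller without either Brg1sh_3364 array and was 11 without control array 3. In each of these fits fewer genes were also called over all genes. Against the control mean, the median change of the list was -0.10 in Brg1sh_3364 array 1 and -0.17 in array 2.

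Of 28 measured cell cycle inhibitors and quiescence genes, 21 rose and 1 fell, with a median of 0.38. Foxo1, a transcription factor of quiescence and stress resistance, measured 9.42 and 9.25 against 7.79, 7.96 and 7.83, a rise of 1.48 (SE 0.068, adjusted p = 2.83e-06, limma). Trp53inp1, a p53-induced protein, rose by 0.75 and Klf10, a TGF-beta-induced repressor, by 0.66. The antiproliferative protein Tob1 rose by 0.95. Inhibitors of cyclin-dependent kinases were among those that rose, with Cdkn2b at 0.72, Cdkn2a at 0.55 and Cdkn1b at 0.44. Of the Mxd proteins, which compete with Myc for Max, Mxd4 rose by 0.60, Mxd1 by 0.59 and Mxd3 by 0.51. The gene that fell was Gadd45b, by 0.30.

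Primary granule genes, made by neutrophil precursors, and late neutrophil genes, made as neutrophils mature, differed in the direction of most of their called members. Of 13 measured primary granule genes, 7 fell and 1 rose, with a median of -0.35. Mpo, myeloperoxidase, measured 12.76 and 12.71 against 13.90, 13.79 and 13.72, a fall of 1.07 (SE 0.061, adjusted p = 7.22e-06, limma). Cst7 fell by 1.66. Gstm1, which the list counts among the 7 falls, is a glutathione transferase and not a granule protein. It fell by 1.05, and the probes of its close paralogs may cross-hybridise. The serine proteases Prtn3, Elane and Ctsg fell by 0.64, 0.46 and 0.35. The riser was Prss57, another serine protease of the granules, up 0.57. It was not called without Brg1sh_3364 array 1, and without control array 2 a second gene of the list rose.

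Of 35 late neutrophil genes, 20 rose and 1 fell, with a median of 0.39. Padi4, the enzyme that citrullinates histones in neutrophils, measured 9.94 and 10.11 against 8.28, 8.18 and 8.24, a rise of 1.79 (SE 0.063, adjusted p = 9.62e-07, limma). Mmp9, gelatinase B, rose by 1.17 (SE 0.087), and Trem1, a receptor that amplifies inflammation, rose by 1.00, to 12.36 and 12.42 from 11.35, 11.41 and 11.40. Mmp8, neutrophil collagenase, rose by 1.83 and Itgb2l, an integrin chain of neutrophils, by 1.65. Control array 3 was the lowest of the controls in several of these genes, for example at 9.47 for Ly6g beside 10.64 and 10.36, while Brg1sh_3364 gave 11.48 and 11.53. The granule protein genes Camp and Ngp did not pass the test, Camp at -0.29 (adjusted p = 0.430) and Ngp at 0.10 (adjusted p = 0.289). Wfdc21 fell by 0.63, and 2 genes of the list fell without Brg1sh_3364 array 2, control array 2 or control array 3.

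Macrophage and monocyte markers rose more often than they fell, without moving as a block. Of 53 measured, 22 rose and 6 fell, with a median of 0.16. Csf1r, the receptor for macrophage colony-stimulating factor, measured 11.58 and 11.61 against 10.79, 10.80 and 10.80, a rise of 0.80 (SE 0.046, adjusted p = 7.57e-06, limma). Cx3cr1, the fractalkine receptor, rose by 1.54, to 10.59 and 10.56 from 8.94, 9.11 and 9.06. Itgam, CD11b, rose by 0.43, and Adgre1, F4/80, by 0.97. Cd14, the co-receptor for lipopolysaccharide, measured 10.26 and 10.16 against 9.96, 9.84 and 10.08, a difference of 0.25 (adjusted p = 0.0435) whose call was lost without either Brg1sh_3364 array, without control array 1 or 2, under both other scalings (adjusted p = 0.06 and 0.0886, limma) and in a fit on the 5 compared arrays alone (0.098). Falls were those of F13a1, of Ccr2, the chemokine receptor of inflammatory monocytes (-0.93), and of Clec4e (-0.78), Ly86 (-0.45), Ms4a6d (-0.39) and Fcgr2b (-0.25). Mertk and C1qa, which mark resident macrophages, did not pass the test, at 0.01 and 0.03. The number of macrophage markers that rose was 13 without Brg1sh_3364 array 1.

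Receptors for growth factors and chemokines rose in 23 of 34 cases and fell in 3, with a median of 0.35. Csf2rb2, a beta chain of the interleukin-3 receptor that is nearly identical to Csf2rb, rose by 0.78. Csf3r, the receptor for granulocyte colony-stimulating factor, rose by 0.45, Il6ra by 0.69 and Ccr1 by 0.69, while Ccr2, Tnfrsf1b (-0.65) and Il10ra (-0.36) fell. Of 27 genes of the complement, CD200, Fc and leukotriene pathways, 14 rose and 3 fell, with a median of 0.15. C5ar2, a receptor for complement C5a, measured 11.60 and 11.66 against 10.01, 10.15 and 10.06 and rose by 1.55, and its relative C5ar1 rose by 1.00. Cd200r4 and Cd200r2 rose by 1.92 and 1.23 beside Cd200r3. These receptors are close in sequence and their probes may share signal. In this list 1 gene fell without Brg1sh_3364 array 1. Cysltr1 fell by 1.60 while the leukotriene synthesis genes Alox5 (0.44), Alox5ap (0.25) and Ltc4s (0.15) rose. Of 21 leukocyte integrins, 8 rose (38.1%) and 3 fell (14.3%), beside 13.6% and 12.2% of all genes, with a median of 0.11. After Itgax the smallest p belonged to Itgb3 (0.80) and Itgb5 (0.79). Without Brg1sh_3364 array 2, 1 integrin fell.

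Transcription factors of myeloid cells rose in 25 of 49 cases and fell in 4, with a median of 0.25. Cebpa, which directs early granulocyte development, went the other way and fell by 0.88 (SE 0.057, adjusted p = 1.3e-05, limma), to 9.23 and 9.24 from 10.11, 10.20 and 10.03. Irf8, a monocyte factor, fell by 0.40. Klf6, a zinc finger factor, rose by 0.95, and Fosl2, of the AP-1 family, by 0.94. The AP-1 genes Fosb and Fos rose by 1.49 and 1.44, Spi1, which encodes PU.1, by 0.27, and Cebpd by 0.61. Of 29 Ras-MAPK output genes, 9 rose (31.0%) and 3 fell (10.3%), beside 13.6% and 12.2% of all genes, with a median of 0.11. Rasgrp4, a Ras activator of myeloid cells, measured 12.12 and 12.18 against 10.72, 10.90 and 10.61 and rose by 1.41, and Dusp5, a phosphatase that acts on ERK, rose by 1.15. Spry2, a feedback inhibitor of the pathway, fell by 0.47, and 1 gene of the list fell without Brg1sh_3364 array 2 or control array 2.

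Interferon-stimulated genes were split. Of 44 measured, 19 rose and 9 fell, with a median of 0.14 that turned to -0.01 with dim genes left out. Irf9, the DNA-binding subunit of the interferon-activated complex ISGF3, measured 10.43 and 10.30 against 9.32, 9.31 and 9.32, a rise of 1.05 (SE 0.06, adjusted p = 7.4e-06, limma). Slfn2, a Schlafen protein, rose by 1.23, and Ifih1, the RNA sensor MDA5, by 0.73. Usp18, a brake on interferon signalling, rose by 1.29 and Irf7 by 1.00. Members that fell included Gbp3, a guanylate-binding GTPase (-0.84), Ifitm3, which blocks virus entry (-0.74), Ifit2 (-0.73) and Oas1a (-0.56). Without Brg1sh_3364 array 1, 10 of the 44 rose and 7 fell.

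The promoters of these genes were searched for GAAANNGAA, part of the interferon response element, on both strands. It was found in 17 of 38 promoters of the list (44.7%), beside 7.84% of all promoters, 6.96% of those of genes that rose and 7.78% of those of genes that fell. Shares in the other lists ran from 0.0% (such as cell cycle inhibitors and quiescence genes) to 40.0% (2 of 5 NADPH oxidase and nitric oxide promoters). Macrophage and monocyte markers had 25.0%. The stretches below are shown because they hold the same element in genes that moved in opposite directions. They lie at chr2:62646329-62646397 on the minus strand (Ifih1), chr19:34583397-34583465 on the plus strand (Ifit3) and chr3:142559970-142560038 on the plus strand (Gbp3), read 5′ to 3′ along the gene. The capitals mark a match to the element in each stretch, here on the opposite strand, with its first base 112, 102 and 44 bases before the start. The stretches of Ifit3 and Gbp3 each hold a further match that is not marked, which in Gbp3 overlaps the marked one.
Ifih1: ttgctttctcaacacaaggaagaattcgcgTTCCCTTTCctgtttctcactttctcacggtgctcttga
Ifit3: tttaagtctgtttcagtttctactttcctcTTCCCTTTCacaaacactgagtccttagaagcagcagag
Gbp3: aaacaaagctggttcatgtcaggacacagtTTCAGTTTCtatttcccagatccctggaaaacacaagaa
Ifih1 measured 10.61 and 10.62 against 9.94, 9.85 and 9.88. Ifit3, an RNA-binding effector, measured 6.68 and 6.62 against 6.17, 6.37 and 6.21 and rose by 0.40. Gbp3 measured 8.18 and 7.95 against 8.75, 8.82 and 9.15.

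Of 39 inflammatory and NF-kB genes, 17 rose (43.6%) and 4 fell (10.3%), beside 13.6% and 12.2% of all genes, with a median of 0.15. Nfkbie, an inhibitor of NF-kB that is also its target, measured 10.44 and 10.36 against 9.10, 9.34 and 9.05 and rose by 1.23 (SE 0.078, adjusted p = 1.17e-05, limma). Tnfaip3, the feedback inhibitor A20, rose by 0.78 (SE 0.044), and Il1b, which encodes interleukin-1 beta, by 0.69 (SE 0.046). The chemokine genes were divided, with rises of Cxcl10 (0.82), Ccl3 (0.70) and Ccl4 (0.57) and falls of Ccl6 (-0.82) and Ccl9 (-0.51).

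Lysosome genes rose in 21 of 50 cases and fell in 4, with a median of 0.13. Lgmn measured 10.75 and 10.64 against 8.19, 8.65 and 8.54 and rose by 2.23. Ids, a sulfatase that degrades heparan sulfate, rose by 1.81 (SE 0.081), while Scarb2, the receptor that carries glucocerebrosidase to lysosomes, fell by 0.83. Most other rises were small, from 0.18 to 0.58 apart from Idua at 0.85. Without Brg1sh_3364 array 1 or 2, 12 and 13 lysosome genes rose and 2 fell. Of 8 NADPH oxidase and nitric oxide genes, 4 rose and 0 fell, with a median of 0.12, namely Ncf4 (0.44), Ncf1 (0.41), Cybb (0.23) and Cyba (0.15). Cybb, the catalytic subunit, lost its call without either Brg1sh_3364 array (adjusted p = 0.0573 and 0.0633, limma), and 2 of the 8 then rose, while without control array 3, 3 rose and 1 fell. Antigen presentation genes had 4 of 20 that rose and 5 that fell, with a median of -0.04. H2-Ab1, a class II chain, fell by 0.98 and Psmb8, an immunoproteasome subunit, by 0.47, while Tapbp, which loads class I molecules, rose by 0.52.

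Of 23 measured Bcl2 family and cell death genes, 9 rose and 3 fell, with a median of 0.09. Bmf, a pro-apoptotic BH3-only protein, measured 10.13 and 10.10 against 8.85, 8.96 and 8.55 and rose by 1.33 (SE 0.10). Casp6, an executioner caspase, rose by 0.79, and so did the survival genes Bcl2l1 (0.49) and Mcl1 (0.39). Without Brg1sh_3364 array 2, 1 gene of this list fell. Of 23 glycolysis and glucose transport genes, 5 rose and 3 fell, beside 13.6% and 12.2% of all genes, with a median of 0.03 whose sign turned under another setting. Slc2a3, the glucose transporter GLUT3, measured 11.12 and 11.15 against 10.03, 10.11 and 9.90 and rose by 1.12. Aldoc, an aldolase, rose by 1.05, and Slc16a1, the lactate transporter MCT1, fell by 1.25.

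Lists of markers of other blood lineages held single large changes. Of 28 mast cell, basophil and eosinophil markers, 3 rose (Prg2, Cpa3 and Cd200r3) and 3 fell (Hdc, Mcpt8 and Epx), with a median of 0.01. These shares are close to or below the 13.6% and 12.2% of all genes that rose and fell. The array means over the list ran from 7.23 to 7.24 with Brg1sh_3364 and from 6.95 to 7.04 in the controls. Defining receptors of these cells did not pass the test, at 0.05 for Fcer1a and 0.00 for Il5ra. Mcpt8, a basophil protease, fell by 0.66, and Epx, eosinophil peroxidase, by 0.31. Dendritic cell markers had 3 of 20 that rose and 3 that fell, again close to the shares of all genes, with Id2, an inhibitor of helix-loop-helix factors, at 0.61 and Tcf4, a factor of plasmacytoid cells, at -0.33. Klrd1 rose by 0.30, a call that was lost without either Brg1sh_3364 array and in a fit on the 5 compared arrays alone. Without Brg1sh_3364 array 1, 1 dendritic marker rose and 1 fell, and without array 2, 1 rose and 3 fell. Of 28 lymphoid markers 1 rose (3.57%) and 2 fell (7.14%), both below the shares of all genes. Cd79b, of the B cell receptor, was at -1.17 and Prf1, perforin, at -0.57. Il7r, the interleukin-7 receptor, rose by 0.72, and this call was lost without either Brg1sh_3364 array. Erythroid and megakaryocyte markers had 4 of 19 that rose and 1 that fell, Tfrc, the transferrin receptor of all dividing cells, by 1.04. Nfe2 rose by 0.41 and Tfr2 by 0.35, and 1 and 2 of these 19 rose without Brg1sh_3364 array 1 and 2.

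The 3 Brg1 hairpins were compared directly to see where Brg1sh_3364 differed. The differences themselves use no control array, while their errors come from the fit over all 9 arrays, the controls included. Against the mean of Brg1sh_3232 and Brg1sh_4935, 1266 genes were higher with Brg1sh_3364 (6.35%) and 837 lower (4.2%). The count fell to 699 genes in all without Brg1sh_3364 array 1 and to 1026 without array 2. Smarca4 did not pass this test, at 0.03 (adjusted p = 0.79), while Myc was 0.61 lower with Brg1sh_3364 than with the others (adjusted p = 0.00061, limma). Prg2 differed most among the genes named, 2.41 higher with Brg1sh_3364 (SE 0.057), followed by Eif2s3y (2.23), Lrrk2 (2.16), Eya1 (1.77), Cntln (1.72) and Ak8 (1.71). Lower with Brg1sh_3364 were Mc5r (-1.61, a melanocortin receptor), Ifi207 (-1.56, an interferon-inducible nuclear protein), Gem (-1.44, a small GTPase), Gfi1b (-1.32, a repressor of erythroid and megakaryocyte development), Prrg4 (-1.28) and Ifitm3 (-1.26). Against the controls, Mc5r rose by 1.15, Ifi207 by 0.96, Gem by 0.92 and Gfi1b by 0.62 with Brg1sh_3364, and Prrg4 differed by 0.86 without passing (adjusted p = 0.0745). Of these, Gem, Gfi1b and Mc5r lost the call against the controls without Brg1sh_3364 array 1 and in a fit on the 5 compared arrays alone. Gem also lost it without Brg1sh_3364 array 2 or control array 2, and Ifitm3 without Brg1sh_3364 array 2.

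By list, late neutrophil genes were higher with Brg1sh_3364 than with the other hairpins in 15 of 35 cases and lower in 1. Over all genes 6.35% were higher and 4.2% lower, and the list counts from all arrays are to be read beside these shares. Cell cycle inhibitors were higher in 10 of 28 and lower in 1, and mitosis genes higher in 15 of 48 and lower in 0. Lower with Brg1sh_3364 were 19 of 53 macrophage markers (4 higher), 16 of 44 interferon-stimulated genes (4 higher), 13 of 34 growth factor and chemokine receptors (2 higher), 13 of 50 lysosome genes (1 higher) and 11 of 58 ribosome biogenesis genes (0 higher). Like the number of genes called over all genes, these counts dropped without single arrays. Without Brg1sh_3364 array 1 they were 6 late neutrophil genes, 1 cell cycle inhibitor and 0 mitosis genes higher, and 10 macrophage markers, 8 interferon-stimulated genes, 6 receptors, 3 lysosome genes and 3 ribosome biogenesis genes lower. Without Brg1sh_3364 array 2 they were 8, 5 and 5 higher, and 10, 7, 7, 3 and 3 lower. Among the arrays of the other hairpins, mitosis genes gave 9 higher without Brg1sh_3232 array 2 and 7 and 5 without Brg1sh_4935 array 1 and 2. Macrophage markers gave 12 and 11 lower without Brg1sh_4935 array 1 and 2, and lysosome genes 6 without the latter. Ribosome biogenesis genes gave 6 lower without Brg1sh_3232 array 2 and 5 and 7 without Brg1sh_4935 array 1 and 2. Against the shared controls, the median change of the late neutrophil genes was 0.39 with Brg1sh_3364, 0.10 with Brg1sh_3232 and 0.10 with Brg1sh_4935. For the macrophage markers the medians were 0.16, 0.25 and 0.37, and for ribosome biogenesis genes -0.50, -0.31 and -0.35, in the same order of hairpins. Mitosis genes had medians of -0.14, -0.34 and -0.30 in that order, so as a list they fell less with Brg1sh_3364 and did not rise.

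**Figure D5:**
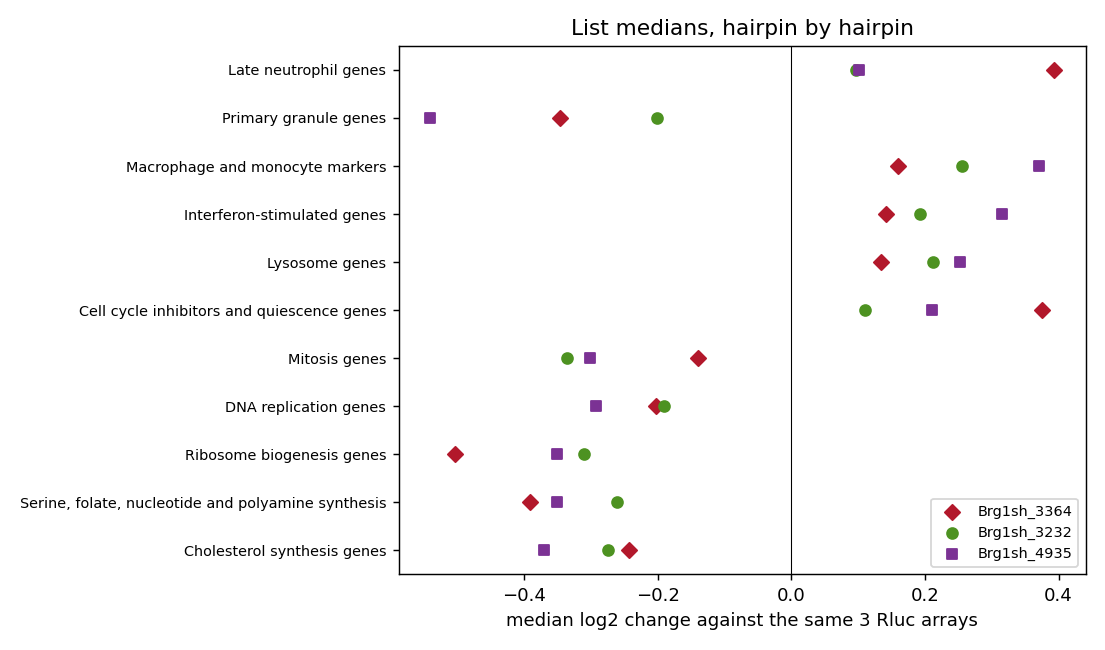
Median log2 change of 11 gene lists (horizontal axis) against the same 3 Rluc arrays for Brg1sh_3364 (red diamonds), Brg1sh_3232 (green circles) and Brg1sh_4935 (purple squares). The late neutrophil median is 0.39 with Brg1sh_3364 and 0.10 with each of the other hairpins, and the ribosome biogenesis median is lowest, at -0.50, with Brg1sh_3364.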

How the data were processed

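Total RNA was labelled with biotin and hybridised to 1-colour Affymetrix arrays. The deposited values are log2 expression, made by the authors with RMA per the submitters' processing notes; its version and the genome build were not given in the sources used here. Of 34760 rows, 21640 had 1 gene symbol, 1321 several and 11799 none in the platform annotation, and 21553 of the first kind matched RefSeq. The probe set with the highest mean over the 9 arrays stood for its gene (954 genes had several). A group-means model over all 9 arrays was fitted with limma 3.58.1 in R 4.3.3 (lmFit, eBayes, two-sided, Benjamini-Hochberg adjusted p below 0.05), with 5 residual and 3.85 prior degrees of freedom, after being tested on simulated data.

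The 30 gene lists and the naming rule were chosen with earlier results of these data known. The lists held 913 measured of 1046 entries, and none of the replication-dependent histone entries had a gene of its own. The rule named 12 fixed genes, the 15 largest called rises and 15 largest called falls, the 3 smallest p in each list, and the 6 largest called differences each way from the other hairpins. Rises, falls and differences were named only where the Brg1sh_3364 arrays lay apart from all arrays compared with them. Among these, predicted models, small RNAs, antigen receptor segments and olfactory or vomeronasal receptors were left out. Promoters were searched on both strands for 8 motifs, with chromosome 18 left out. Alternatives covered scaling, dim genes, probe sets, variance model, array weights, a replicate block, arrays included, threshold and single arrays.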

Additional observations from a re-analysis of the deposited data

Results flagged for a closer look

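The genes given here are the 6 with the largest positive and the 6 with the largest negative differences between Brg1sh_3364 and the mean of the other 2 Brg1 hairpins, as log2 differences from limma with adjusted p. Prg2 was higher by 2.408 (adjusted p = 3.1e-07), Eif2s3y by 2.228 (2.07e-05), Lrrk2 by 2.163 (9.56e-07), Eya1 by 1.771 (2.07e-05), Cntln by 1.72 (1.43e-06) and Ak8 by 1.708 (1.72e-05). These 6 calls held whichever of the 6 knockdown arrays was left out. Mc5r differed by -1.613 (adjusted p = 0.00246), Ifi207 by -1.561 (0.000428), Gem by -1.444 (0.00431), Gfi1b by -1.322 (0.000685), Prrg4 by -1.281 (0.0248) and Ifitm3 by -1.257 (0.00146). The call of Gem was lost without Brg1sh_3364 array 2 (adjusted p = 0.0589, limma), and that of Prrg4 without any single one of the 6 arrays (0.0703 to 0.175).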

How the results depend on the processing

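With all 34760 rows of the deposited values fitted in place of genes, 5601 rows were called against Rluc. The number of genes called against Rluc was 5133. This number lay between 4155 and 5369 under the other scalings, filters, probe set rules, variance models and array sets, and was 3246 at an adjusted p below 0.01. It ranged from 3424 to 4800 with single arrays left out. Leaving out a Brg1sh_3364 array leaves 1 array in that group, which is then assumed to vary like the other groups. Of the called genes 52.7% rose, 48.5% after further quantile normalization and 43.3% with arrays centred on their medians. The median change of all genes was -0.0102 in the main fit. It was -0.0383 after further quantile normalization and -0.0513 with arrays centred. A replicate block gave 4528 called genes. Deviations of same-numbered Brg1sh_3364 and Rluc arrays from their group means correlated at -0.0653 and 0.00532. The 2 Brg1sh_3364 arrays deviate from their mean by equal and opposite amounts, so this check cannot decide whether the numbers pair the arrays. Against the other 2 hairpins 2103 genes were called, 944 at the stricter threshold, and 699 to 1860 with single arrays left out: 699 and 1026 without Brg1sh_3364 array 1 and 2, and 1334 and 1309 without Brg1sh_4935 array 1 and 2. The causes were not tested. Smarca4 kept its call under every setting, from -1.033 to -0.978. Of 116 other named genes, 104 kept direction and side of the threshold under every setting that gave them a value, the stricter threshold apart. Leaving out dim genes gave some of them none. Most of the 116 were named for a large change or a small p in the same fit, so their calls were likely to hold. The medians of 6 of 29 lists changed sign under some setting.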

Other observations

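Some genes next to each other on a chromosome changed in the same direction. After the values were seen, runs of at least 3 neighbouring measured genes that all changed by at least 1.5-fold in 1 direction and passed the test were listed, which gave 7 runs, with neighbours taken from the RefSeq gene order. How many such runs a shuffled gene order would hold was not tested, and 25.7% of all genes were called. The CD200 receptor genes Cd200r4, Cd200r2 and Cd200r3 rose by 1.92, 1.23 and 2.42, and the purinergic receptor genes P2ry14 and P2ry13 rose by 1.20 and 2.39 with F630111L10Rik between them at 1.14. A glucose transporter and a complement receptor gene, Slc2a3 and C3ar1, flank Foxj2, and the 3 rose by 1.12, 2.74 and 0.73. Dmwd, Dmpk and Six5 rose by 1.47, 1.26 and 0.70, and Ift81, P2rx7 and P2rx4 by 0.75, 0.88 and 0.88. The run that fell held the mu-class glutathione transferases Gstm3, Gstm2, Gstm1 and Gstm4, at -0.87, -0.81, -1.05 and -0.70. The last run held the unnamed genes 9830107B12Rik and A530064D06Rik (up 1.91) beside Trem1 (up 1.00). Paralogs within these runs are close in sequence and may share probe signal.

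Other motifs had uneven shares between lists. CCAAT was found in 31 of 43 promoters of mitosis genes (72.1%) and 53.7% of those of DNA replication genes, beside 37.4% of all promoters. It was not particular to these lists, at 84.2% for cholesterol synthesis and 71.8% for the integrated stress and unfolded protein responses. Antigen presentation genes had 64.3% and cell cycle inhibitors and quiescence genes 58.6%. The E2F motif TTTCCCGC was found in 14.8% of DNA replication promoters and in 3 of 26 SWI/SNF promoters (11.5%), beside 1.51% of all. The PU.1 motif GAGGAAGT was found in 7 of 30 late neutrophil promoters (23.3%) and 3 of 12 primary granule promoters (25.0%), beside 2.78% of all. It was not particular to these lists, at 18.8% for leukocyte integrins and 11.1% for Ras-MAPK output genes. AP-1's TGACTCA was found in 19.4% of promoters of inflammatory genes beside 4.61% of all. These shares describe letters in the reference sequence, and no binding was measured.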
